A study of Homo sapiens with 26 samples.

Results

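LoVo cells of the PIK3CA H1047R line were compared with wild-type LoVo cells while both were in palbociclib. The comparison uses 4 of the 26 libraries of the series, 2 per group, chosen by their labels, with no DMSO library, and it covers all genes. All 4 libraries stand in the first of 2 deposited tables, which holds 18 libraries and 18165 genes. Values are FPKM, that is, sequenced fragments per gene scaled to transcript length and library size. Of the 18165 genes, 12126 reached at least 1 FPKM in at least 2 of the 4 libraries and were tested. The series asks how mutations in PIK3CA bear on the response of colorectal cancer cells to palbociclib, and what the factors secreted by senescent cells do. It holds wild type, E545K and H1047R cells in DMSO, palbociclib or medium conditioned by senescent cells, and, in the second table, both mutant lines in palbociclib with or without erlotinib.

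LoVo is an established human colorectal cancer line. The H1047R group is a derivative of these cells in which the mutation was introduced with a lentiviral vector. Of the pair of H1047R lines that the series description names, 2# and 3#, it gives 3# for the palbociclib experiment. The wild-type group is the parental PIK3CA genotype, and whether it carries an empty vector is not given in the sources used here. Both groups grew in DMEM with 10% fetal bovine serum and antibiotics, and both received 0.5 µM palbociclib for 72 hours. With 1 line per genotype, the mutation and the derivation of the line cannot be told apart. Nothing in the labels says that the replicates are separate cultures, so the p-values measure the spread between these libraries, which may be technical.

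PIK3CA encodes p110-alpha, the catalytic subunit of a phosphoinositide 3-kinase (PI3K) that makes a membrane lipid signal for the kinase AKT. AKT keeps FOXO transcription factors out of the nucleus and feeds the growth kinase mTOR. H1047R lies in the kinase domain and E545K in the helical domain of p110-alpha, and both are recurrent activating changes in colorectal cancer. Palbociclib inhibits CDK4 and CDK6, so that the retinoblastoma protein RB stays active and holds down the E2F genes of DNA replication. Cells held in this way can enter senescence, a lasting arrest that often comes with the secretion of chemokines, growth factors and matrix proteases.

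The genes with the largest increases in H1047R included chemokines, and genes of the interferon response moved in both directions. The promoters of 7 of these genes are shown for this reason, as the 250 bases before the start of the gene, 5′ to 3′ on the strand of the gene, from RefSeq on GRCh38.p14. In the first 4, capitals mark matches to the NF-kB consensus, the binding motif of a family of inflammatory transcription factors. In the last 3, capitals mark the core of the interferon-stimulated response element, GAAANNGAAA.
CXCL1, chr4:73869143-73869392, plus strand: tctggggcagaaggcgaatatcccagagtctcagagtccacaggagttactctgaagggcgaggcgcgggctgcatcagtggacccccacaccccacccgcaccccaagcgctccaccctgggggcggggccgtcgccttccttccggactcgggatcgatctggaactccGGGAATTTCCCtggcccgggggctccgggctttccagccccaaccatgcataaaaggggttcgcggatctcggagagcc
CXCL2, chr4:74099196-74099445, minus strand: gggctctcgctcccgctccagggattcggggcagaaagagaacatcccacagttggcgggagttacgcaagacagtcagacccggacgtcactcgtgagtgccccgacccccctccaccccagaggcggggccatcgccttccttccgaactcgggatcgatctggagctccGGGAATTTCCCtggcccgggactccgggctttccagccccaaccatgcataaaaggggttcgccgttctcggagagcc
CXCL3, chr4:74038690-74038939, minus strand: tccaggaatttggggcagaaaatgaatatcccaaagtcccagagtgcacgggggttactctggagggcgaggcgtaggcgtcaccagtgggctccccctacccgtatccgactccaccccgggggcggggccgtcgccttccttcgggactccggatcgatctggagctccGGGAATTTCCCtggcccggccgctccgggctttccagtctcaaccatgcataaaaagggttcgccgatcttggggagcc
CCL20, chr2:227813592-227813841, plus strand: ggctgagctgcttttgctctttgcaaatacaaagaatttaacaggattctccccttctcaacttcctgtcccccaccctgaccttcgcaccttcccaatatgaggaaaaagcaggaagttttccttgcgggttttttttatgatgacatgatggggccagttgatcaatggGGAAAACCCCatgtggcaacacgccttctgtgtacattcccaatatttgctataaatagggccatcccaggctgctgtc
IFIT1, chr10:89392373-89392622, plus strand: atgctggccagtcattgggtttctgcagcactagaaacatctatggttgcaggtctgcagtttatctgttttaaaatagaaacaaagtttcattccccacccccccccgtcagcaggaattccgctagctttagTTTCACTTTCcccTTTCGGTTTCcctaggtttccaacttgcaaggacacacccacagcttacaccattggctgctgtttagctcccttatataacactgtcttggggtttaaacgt
IFIT3, chr10:89327747-89327996, plus strand: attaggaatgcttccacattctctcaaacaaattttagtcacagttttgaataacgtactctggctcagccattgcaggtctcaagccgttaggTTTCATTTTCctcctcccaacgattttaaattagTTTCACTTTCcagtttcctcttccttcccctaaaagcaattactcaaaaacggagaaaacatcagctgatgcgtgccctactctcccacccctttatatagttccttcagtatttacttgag
IFI44L, chr1:78620198-78620447, plus strand: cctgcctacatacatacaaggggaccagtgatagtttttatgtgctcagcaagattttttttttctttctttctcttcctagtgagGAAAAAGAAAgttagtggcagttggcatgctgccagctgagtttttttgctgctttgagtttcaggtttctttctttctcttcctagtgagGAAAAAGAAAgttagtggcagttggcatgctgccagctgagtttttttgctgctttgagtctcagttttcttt
Both strands were searched, and the motifs were chosen after the values were seen. The promoter of RSAD2, an interferon gene also searched for the response element core, held 0 matches and is not printed. In CXCL1, CXCL2 and CXCL3 the consensus matches on both strands overlap and share 1 stretch of letters. In CCL20 the match is on the opposite strand. IFIT1 and IFIT3 carry their matches on the opposite strand and IFI44L on its own. The NF-kB consensus stood in 1828 of 35116 promoters of this length (5.206%) and in 13 of the 29 promoters (44.83%) found for the 32 tested genes of the NF-kB list. The response element core stood in 1061 of the 35116 (3.021%) and in 22 of the 39 promoters (56.41%) found for the 49 tested genes of the interferon list. A match of letters is a description and not a measured binding site.

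The 4 libraries had FPKM sums of 464300 to 524300, which do not measure library size, and 11640 to 11941 genes at 1 FPKM or more. Read depth is unknown because the table holds no counts. The H1047R replicates were less alike than those of any other group. Their correlation across genes was 0.9858, while the remaining 8 groups gave 0.9912 to 0.9975. The residual SD of this pair was 0.232 on the log2 scale against 0.091 in the wild-type pair. These values do not say which of the H1047R libraries is the unusual one. The difference between the H1047R replicates followed transcript length. Genes with transcripts up to 1000 nucleotides were higher in replicate 2 by a median of 0.31 on the log2 scale, and genes over 8000 nucleotides were lower, at -0.38. Over tested genes, replicate difference and log2 length correlated at -0.52 in this group and at -0.34 to 0.30 in the others, where the points are genes of the same pair of libraries. The part of this length difference in the results was not tested beyond leaving out each library and removing a length trend. The 18 colorectal epithelial markers summed to 13750 and 17910 FPKM in H1047R and to 8826 and 9212 in wild type, most of it keratins, with KRT20 and CDX1 too low to be tested. The 23 markers of fibroblasts, endothelium, blood and nerve in the table summed to 52.3 and 53.3 FPKM in H1047R and to 59.0 and 60.7 in wild type, most of it CD68, and KDR and NCAM1 were at 0 in all 4 libraries. Of these markers 5 were tested, of which 1, COL3A1, rose and 1, DES, fell; COL3A1 was not called without either wild-type library and DES without replicate 2.

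**Figure D1:**
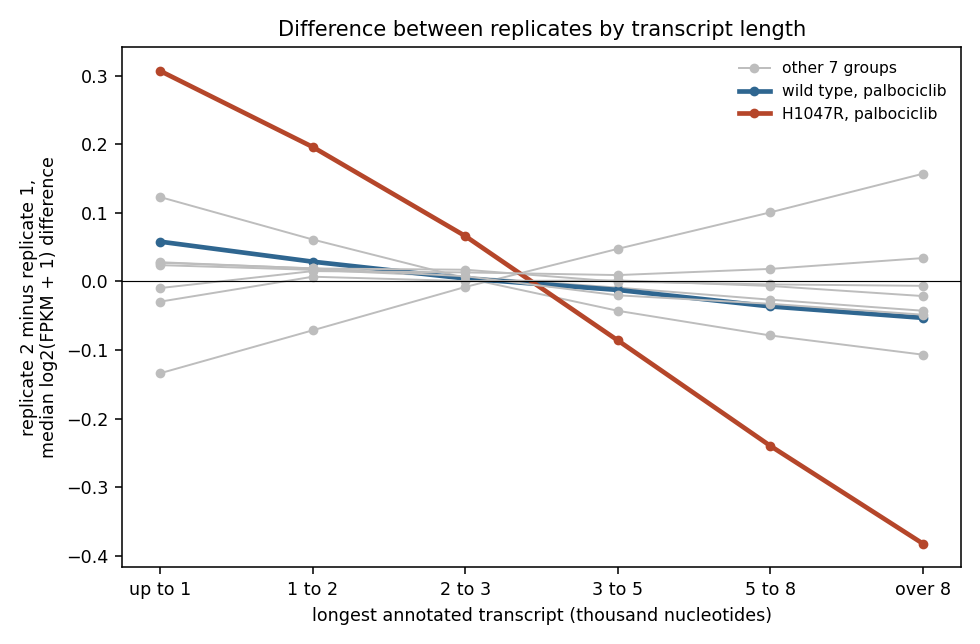
Median difference between replicate 2 and replicate 1 on the log2(FPKM + 1) scale (vertical axis) by the length of the longest annotated transcript (horizontal axis), 1 line per group of 2 libraries. H1047R in palbociclib ran from 0.31 in the shortest to -0.38 in the longest genes, while wild type in palbociclib ran from 0.06 to -0.05.

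The lines differed widely in palbociclib. By limma on log2(FPKM + 1) with Benjamini-Hochberg adjustment, 3533 genes were higher in H1047R (29.1% of those tested) and 1945 were lower (16.0%), so that 45.2% were called at an adjusted p below 0.05. The libraries of the groups did not overlap in 9168 genes (75.6%), so the lack of overlap given for named genes below was the common state. Counts of called genes in each list below are to be read against the 29.1% and 16.0% of all genes. The median log2 change of all genes was 0.10 and moved by -0.10 under quantile normalization and by -0.14 under median-centring. Changes of genes and medians of lists below are therefore stated after subtracting this median, as relative log2 changes. Those of fits without a library, and the medians by exon number, are log2 changes before the subtraction. Testing was done on the change before this subtraction. The share of calls that were higher was 64.49% as deposited, 50.89% under quantile normalization (3019 higher, 2913 lower) and 47.09% under median-centring (2512 higher, 2822 lower). Without wild-type replicate 1 or 2 the calls were 2548 and 2681, and without H1047R replicate 1 or 2 they were 8795 and 8266. A fit that left 1 library in a group took its residual spread from the other group alone. Without an H1047R library this was the wild-type pair, with a residual SD of 0.091 against 0.232 in the H1047R pair. Calls gained in such fits, here and below, are therefore not support for a difference. Genes with transcripts over 8000 nucleotides had a median relative log2 change of -0.23, and 12.88% of them were higher and 21.22% lower.

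**Figure D2:**
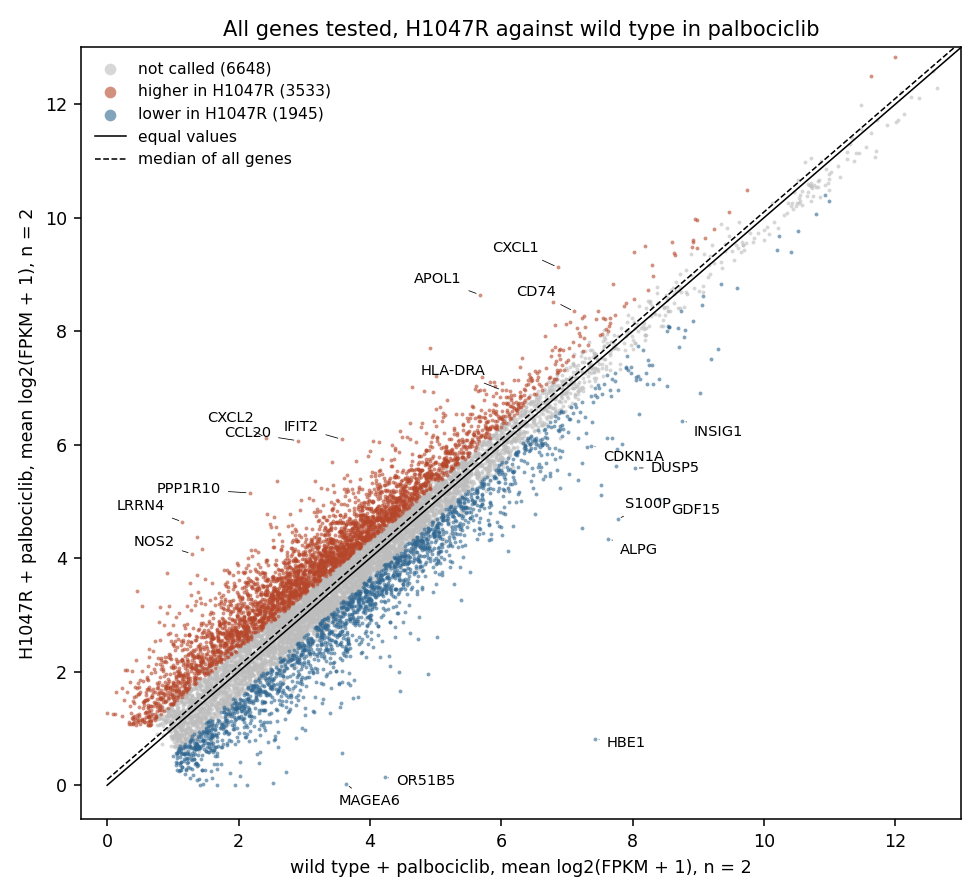
Mean log2(FPKM + 1) of wild type (horizontal axis) and H1047R (vertical axis) in palbociclib, n = 2 each, 1 point per tested gene, with the 3533 genes called higher in red and the 1945 called lower in blue. The solid line marks equal values and the dashed line the median change of 0.10; HBE1, OR51B5 and MAGEA6 lie farthest below the lines.

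The other treatments of the wild-type cells bear on how these calls are read. In the first principal component of the 18 libraries, which held 57.47% of the variance, wild type in palbociclib stood at -41.1 and -41.5 and wild type in DMSO at -61.1 and -61.5. Wild type in conditioned medium stood at 14.3 and 9.7, beside H1047R in palbociclib at 21.9 and 20.2 and H1047R in DMSO at 8.8 and 7.5. Of the 3533 higher genes, wild type in conditioned medium lay on the H1047R side of the midpoint between the compared groups in 73.42%, and wild type in DMSO in 2.746%. Of the 1945 lower genes these shares were 62.11% and 11.36%. E545K in palbociclib lay on the H1047R side in 93.8% of the higher and 81.44% of the lower genes. Many genes that set wild type in palbociclib apart from H1047R therefore also set it apart from wild type in conditioned medium. For each gene list below, the number of its called genes for which wild type in conditioned medium lay on the H1047R side is given as the conditioned-medium count. These counts are to be read against the 73.42% of all higher and 62.11% of all lower genes. What sets the position of wild type in conditioned medium was not tested.

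Among genes whose groups did not overlap, as in 75.6% of all genes, the 12 largest increases and decreases were taken. The increases were those of the chemokines CXCL2, CCL20 and CXCL3, the leucine-rich repeat protein LRRN4, PRR15L, the phosphatase regulator PPP1R10, the apolipoprotein APOL1, the zinc transporter SLC39A2, the nuclear receptor coactivator NCOA5, the inducible nitric oxide synthase NOS2, the small GTPase RASL11A and HPS6, a protein of lysosome-related organelles. LRRN4 stood at 24.7 and 23.2 FPKM in H1047R and 1.0 and 1.45 in wild type (relative log2 change 3.39, SE 0.15, adjusted p 0.000165). APOL1, with the highest FPKM of the 12, stood at 386 and 411 FPKM in H1047R and 48.9 and 51.1 in wild type (relative log2 change 2.87, SE 0.10, adjusted p 0.000165), and its neighbours APOL2 (2.29) and APOL3 (1.66), looked up after APOL1 was seen, were higher too. PRR15L stood at 18.1 and 21.4 FPKM in H1047R and 1.45 and 1.74 in wild type (relative log2 change 2.90, SE 0.14, adjusted p 0.000189). SLC39A2, which imports zinc, stood at 8.9 and 10.6 FPKM in H1047R and 0.49 and 0.26 in wild type (relative log2 change 2.87, SE 0.16, adjusted p 0.00027), and RASL11A at 38.2 and 42.3 FPKM in H1047R and 5.21 and 4.77 in wild type (relative log2 change 2.68, SE 0.12, adjusted p 0.000165).

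The 12 largest decreases were those of the embryonic globin HBE1, the olfactory receptor gene OR51B5, the cancer-testis antigen MAGEA6, the stress cytokine GDF15, the germ-cell alkaline phosphatase ALPG, the calcium-binding protein S100P, the gluconeogenic enzyme PCK1, the CDK inhibitor CDKN1C, the interferon-induced IFI44L, the TNF family ligand TNFSF9, the LIM protein CRIP1 and the clock factor DBP. HBE1 stood at 0.68 and 0.85 FPKM in H1047R and 169 and 174 in wild type (relative log2 change -6.71, SE 0.11, adjusted p 6.93e-06). It lies at chromosome 11, 5268345 to 5269945 in GRCh38.p14, in the globin locus, and OR51B5 and OR51B4 lie in the same neighbourhood. OR51B5 stood at 0.08 and 0.12 FPKM in H1047R and 16.7 and 18.7 in wild type (relative log2 change -4.19, SE 0.13, adjusted p 0.000164) and OR51B4 at 0 and 0.06 FPKM in H1047R and 4.85 and 4.63 in wild type (relative log2 change -2.58, SE 0.13, adjusted p 0.000274). MAGEA6, on the X chromosome, was listed at 0 in 1 H1047R library and stood at 0.03 in the other, against 10.9 and 12.0 FPKM in wild type (adjusted p 0.000165). Of the 8 tested genes of the list of globin locus, olfactory receptor and MAGE genes, 6 fell and 1, CSAG3, rose (median -2.40). HBE1, OR51B5, OR51B4 and MAGEA6 differed in the same direction in the other media: HBE1 was 148 ± 6.75 FPKM in wild-type DMSO and 87.7 ± 2.23 in wild-type conditioned medium, against 0.485 ± 0.276 and 0.865 ± 0.134 in H1047R (mean ± SD, n = 2). The conditioned-medium count of the list was 0 of 7. MAGEA6 shares much of its sequence with other MAGEA genes, so its reads may be split among them.

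**Figure D3:**
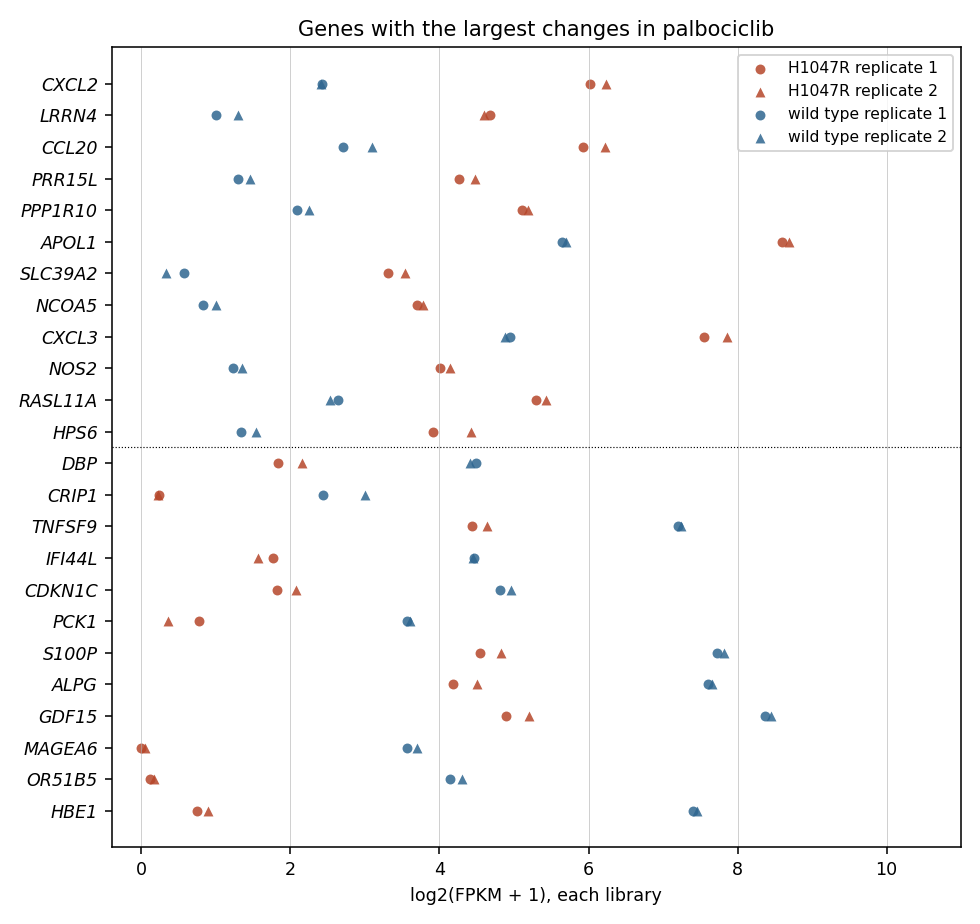
Log2(FPKM + 1) of the 24 genes with the largest changes in each of the 4 libraries, H1047R in red and wild type in blue, replicate 1 as circles and replicate 2 as triangles. The 12 increases stand above the dotted line and the 12 decreases below it; genes were chosen among those whose groups do not overlap.

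The mutated gene itself was read first among the kinases. PIK3CA (chromosome 3, 179148126 to 179240093) stood at 5.95 and 4.38 FPKM in H1047R and 7.23 and 6.68 in wild type (relative log2 change -0.48, SE 0.16, adjusted p 0.0987). The groups did not overlap, but the difference did not pass the test. It passed in 6 of 13 alternative settings, among them the fit without H1047R replicate 1. There the log2 change was -0.56, with no spread from H1047R itself. FPKM per gene does not separate the introduced from the endogenous transcript, so these values do not check the mutation. Of the 25 tested genes of PI3K subunits, AKT kinases and their brakes, 5 rose and 5 fell, with a median relative log2 change of -0.10. The conditioned-medium count was 4 among these called genes. Quantile normalization gave 4 higher and 7 lower and median-centring 4 higher and 9 lower. PIK3R3, a regulatory subunit, stood at 8.88 and 6.66 FPKM in H1047R and 2.79 and 2.81 in wild type (relative log2 change 1.09, SE 0.16, adjusted p 0.00246), and the mTOR complex scaffold RPTOR at 9.57 and 9.8 FPKM in H1047R and 4.4 and 4.44 in wild type (relative log2 change 0.88, SE 0.12, adjusted p 0.0018). The list held 3 higher and 1 lower without wild-type replicate 1, and 4 and 2 without replicate 2. It held 8 higher and 12 lower without H1047R replicate 1, and 9 higher and 7 lower without replicate 2.

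More genes under FOXO control and of insulin signaling fell than rose. Of 19 tested, 4 rose and 11 fell (median -0.51), that is, 21.05% and 57.89%, against the 29.1% and 16.0% of all genes. BCL6, a transcriptional repressor, stood at 1.9 and 1.87 FPKM in H1047R and 12.9 and 11.8 in wild type (relative log2 change -2.31, SE 0.13, adjusted p 0.000346). TXNIP, a brake on glucose uptake and thioredoxin, stood at 117 and 123 FPKM in H1047R and 522 and 523 in wild type (relative log2 change -2.22, SE 0.11, adjusted p 0.000255), and PCK1 at 0.71 and 0.28 FPKM in H1047R and 10.8 and 11.1 in wild type (relative log2 change -3.12, SE 0.17, adjusted p 0.000346). In these 3 the groups did not overlap. FOXO1, FOXO3, FOXO4, IRS2, SESN1, SESN3, CCNG2 and KLF6 also fell, and IRS1, ERBB2, TRIB1 and GRB10 rose. The list held 0 higher and 8 lower without wild-type replicate 1 and the same numbers without replicate 2, and on the TPM scale 1 higher and 8 lower. The conditioned-medium count was 11 of 15. TXNIP, for example, was 90.9 ± 12.4 FPKM in wild-type conditioned medium and 449 ± 0.502 in wild-type DMSO.

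Genes of DNA replication were higher in H1047R in the presence of the CDK4 and CDK6 inhibitor. Of 53 tested replication and E2F target genes, 39 rose (73.58%) and 1, CDT1, fell (1.887%), with a median relative log2 change of 0.57. All 6 subunits of the MCM2 to MCM7 helicase were among these genes. Among all genes 29.1% rose and 16.0% fell. MCM4 stood at 42.5 and 45.6 FPKM in H1047R and 15.9 and 15.7 in wild type (relative log2 change 1.32, SE 0.10, adjusted p 0.000599), and MCM2 at 24.8 and 27.8 FPKM in H1047R and 9.81 and 11.5 in wild type (relative log2 change 1.13, SE 0.13, adjusted p 0.00123). The origin-firing factor GINS3 stood at 8.18 and 8.96 FPKM in H1047R and 2.88 and 2.65 in wild type (relative log2 change 1.25, SE 0.13, adjusted p 0.00106). In these 3 genes each H1047R library was above each wild-type library. The list held 25 higher and 0 lower without wild-type replicate 1, and 24 and 0 without replicate 2. The conditioned-medium count was 39 of 40; MCM4 was 57.2 ± 8.12 FPKM in wild-type conditioned medium and 15.4 ± 0.092 in wild-type DMSO, and 44.5 ± 2.503 in H1047R DMSO.

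Genes of the G2 phase and mitosis followed with smaller changes. Of 48 tested, 22 rose (45.83%) and 0 fell (median 0.22), against 29.1% and 16.0% of all genes. The conditioned-medium count was 22 of 22. The mitotic kinase PLK1 stood at 31.6 and 37.5 FPKM in H1047R and 15.3 and 14.5 in wild type (relative log2 change 1.06, SE 0.12, adjusted p 0.00128), the spindle protein HMMR at 28.4 and 28.96 FPKM in H1047R and 13.2 and 11.99 in wild type (relative log2 change 1.03, SE 0.11, adjusted p 0.00104) and the condensin subunit NCAPH at 16.8 and 16.1 FPKM in H1047R and 7.18 and 7.0 in wild type (relative log2 change 1.01, SE 0.11, adjusted p 0.00118). The proliferation marker MKI67 was not called. It stood at 31.6 and 16.6 FPKM in H1047R and 25.6 and 24.1 in wild type, so that the H1047R libraries lay on either side of wild type (adjusted p 0.767). Its log2 change was -0.55 without H1047R replicate 1 and 0.34 without H1047R replicate 2, so that the H1047R libraries pointed in opposite directions. TOP2A, a DNA topoisomerase gene (54.8 and 33.4 against 55.99 and 51.1 FPKM, H1047R first), was not called either. It was called in 2 of the 13 settings, among them without H1047R replicate 1 (log2 change -0.67). The list held 12 higher and 0 lower without wild-type replicate 1, and 9 and 0 without replicate 2. It held 28 higher and 8 lower without H1047R replicate 1, and 34 higher and 1 lower without replicate 2.

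Of 28 tested cyclins, CDKs and their inhibitors, 10 rose and 6 fell (median 0.07), that is, 35.71% and 21.43%, close to the 29.1% and 16.0% of all genes. CDK4, a target of palbociclib, stood at 120.0 and 163 FPKM in H1047R and 73.8 and 76.3 in wild type (relative log2 change 0.79, SE 0.16, adjusted p 0.00604), and its cyclin partner CCND1 at 146 and 134 FPKM in H1047R and 71.3 and 73.6 in wild type (relative log2 change 0.84, SE 0.10, adjusted p 0.00139). CDK6, the other target, stood at 13.4 and 8.66 FPKM in H1047R and 15.6 and 14.96 in wild type and was not called (adjusted p 0.097). It was called in 6 of 13 alternative settings, among them without H1047R replicate 1 (log2 change -0.75). The S phase cyclin CCNE2 stood at 4.06 and 3.57 FPKM in H1047R and 0.94 and 0.76 in wild type (relative log2 change 1.28, SE 0.14, adjusted p 0.0012). RB1, the gene of the RB protein, stood at 13.2 and 10.8 FPKM in H1047R and 8.1 and 7.42 in wild type (relative log2 change 0.46, SE 0.14, adjusted p 0.0175); this call was lost without wild-type replicate 1 (adjusted p 0.0997) or replicate 2 (0.19).

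Of the CDK inhibitors, CDKN1A, CDKN1B, CDKN1C, CDKN2A and CDKN2D fell and CDKN2C rose. CDKN1A, which encodes p21, an inhibitor induced by p53, stood at 56.3 and 68.9 FPKM in H1047R and 162 and 166 in wild type (relative log2 change -1.48, SE 0.13, adjusted p 0.000934). CDKN1C, which encodes p57, stood at 2.54 and 3.23 FPKM in H1047R and 27.1 and 30.2 in wild type (relative log2 change -3.04, SE 0.14, adjusted p 0.000189), CDKN2D at 5.81 and 6.99 FPKM in H1047R and 19.3 and 18.3 in wild type (relative log2 change -1.52, SE 0.13, adjusted p 0.000917) and CDKN1B at 30.1 and 31.4 FPKM in H1047R and 53.1 and 58.1 in wild type (relative log2 change -0.93, SE 0.10, adjusted p 0.00187). None of these 4 had overlapping groups, as in 75.6% of all genes. CDKN2B, with 8.99 and 6.69 against 8.65 and 8.29 FPKM, H1047R first, was not called. CDKN2C, which encodes p18, stood at 5.59 and 6.87 FPKM in H1047R and 3.55 and 3.53 in wild type (relative log2 change 0.57, SE 0.14, adjusted p 0.0114), a call lost without wild-type replicate 1 (0.0926) or 2 (0.0937). CDKN2B was called in 1 of 13 alternative settings, the fit without H1047R replicate 1 (log2 change -0.30). The list of cyclins, CDKs and inhibitors held 5 higher and 4 lower without wild-type replicate 1, and 4 and 4 without replicate 2, and the conditioned-medium count was 14 of 16. CDKN1A was 242 ± 7.04 FPKM in wild-type DMSO, 52.7 ± 10.3 in wild-type conditioned medium and 59.5 ± 2.496 in H1047R DMSO.

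LMNB1, which encodes lamin B1, a nuclear lamina protein whose loss is a common sign of senescence, stood at 35.3 and 35.01 FPKM in H1047R and 21.7 and 21.3 in wild type (relative log2 change 0.58, SE 0.10, adjusted p 0.00292). Both H1047R libraries were above both wild-type libraries. Of the 10 tested lamin and HMG genes, 4 rose and 3 fell (median 0.10), and under median-centring 2 higher and 3 lower. The list held 1 higher and 0 lower without wild-type replicate 1 and the same numbers without replicate 2. The chromatin protein HMGA1 was among the lower ones, at 613 and 773 FPKM in H1047R and 1151 and 1198 in wild type (relative log2 change -0.87, SE 0.17, adjusted p 0.0129), a call lost without wild-type replicate 1 (adjusted p 0.203) or 2 (0.237). The conditioned-medium count was 6 of 7.

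More target genes of p53 fell than rose. Of 35 tested, 4 rose and 17 fell (median -0.46), that is, 11.43% and 48.57%, against the 29.1% and 16.0% of all genes. GDF15 stood at 28.8 and 35.9 FPKM in H1047R and 328 and 349 in wild type (relative log2 change -3.46, SE 0.13, adjusted p 0.000165), and TNFSF9 at 20.7 and 23.9 FPKM in H1047R and 146 and 150.3 in wild type (relative log2 change -2.78, SE 0.11, adjusted p 0.000165). TP53INP1, an autophagy and stress protein, stood at 6.61 and 4.36 FPKM in H1047R and 25.4 and 21.6 in wild type (relative log2 change -2.04, SE 0.19, adjusted p 0.00114), and BBC3, which encodes the death protein PUMA, at 31.2 and 37.1 FPKM in H1047R and 90.8 and 91.5 in wild type (relative log2 change -1.49, SE 0.12, adjusted p 0.000753). TP53I3, an oxidoreductase and also a p53 target, went the other way, with 23.2 and 30.1 FPKM in H1047R and 5.51 and 6.26 in wild type (relative log2 change 1.90, SE 0.15, adjusted p 0.000665). MDM2, the p53 ubiquitin ligase and a direct target, stood at 34.1 and 21.9 FPKM in H1047R and 36.1 and 33.3 in wild type and was not called (adjusted p 0.217). It was called in 2 of 13 alternative settings, among them without H1047R replicate 1 (log2 change -0.64). Its list had a conditioned-medium count of 18 of 21. GDF15 was 910.1 ± 27.2 FPKM in wild-type DMSO, 68.2 ± 13.3 in wild-type conditioned medium and 66.02 ± 2.45 in H1047R DMSO.

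CXCL1, CXCL2 and CXCL3, chemokines that attract neutrophils, rose together. CXCL2 stood at 63.7 and 74.1 FPKM in H1047R and 4.34 and 4.31 in wild type (relative log2 change 3.61, SE 0.12, adjusted p 0.000164). CXCL3 stood at 187 and 231 FPKM in H1047R and 29.7 and 28.4 in wild type (relative log2 change 2.70, SE 0.13, adjusted p 0.000189), and CXCL1, the most abundant of them, at 505 and 615 FPKM in H1047R and 116 and 114 in wild type (relative log2 change 2.16, SE 0.13, adjusted p 0.000405). Their genes lie in the chemokine cluster of chromosome 4, and their promoters, printed above, share the letters of the NF-kB match. CCL20, which attracts cells that carry the receptor CCR6, stood at 59.5 and 73.5 FPKM in H1047R and 5.55 and 7.51 in wild type (relative log2 change 3.07, SE 0.17, adjusted p 0.00027). In all 4 genes each H1047R library exceeded each wild-type library. CXCL1, CXCL2 and CXCL3 are close copies, so reads could be split among them.

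Most of the wider NF-kB list rose as well. Of 32 tested factors and targets, 20 rose and 3 fell (median 0.52), against the 29.1% and 16.0% of all genes. TNFAIP3, a feedback inhibitor of NF-kB, stood at 49.5 and 43.4 FPKM in H1047R and 25.6 and 24.3 in wild type (relative log2 change 0.77, SE 0.11, adjusted p 0.00211), and the apoptosis inhibitor BIRC3 at 88.8 and 59.3 FPKM in H1047R and 28.8 and 26.8 in wild type (relative log2 change 1.26, SE 0.19, adjusted p 0.00277). NFKB1, RELB, NFKBIE, NFKBIZ, TNIP1, TRAF1, SOD2, CYLD, LTB, CD83 and IKBKE also rose. TNF itself fell, at 8.54 and 9.97 FPKM in H1047R and 12.9 and 13.5 in wild type (relative log2 change -0.57, SE 0.12, adjusted p 0.0232), a call lost without wild-type replicate 1 (adjusted p 0.2) or 2 (0.271). The list held 13 higher and 1 lower without wild-type replicate 1, and 12 and 1 without replicate 2. The conditioned-medium count was 10 of 23. CXCL2 was 10.4 ± 0.983 FPKM in wild-type DMSO, 35.4 ± 8.09 in wild-type conditioned medium and 37.02 ± 3.22 in H1047R DMSO.

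Of 44 tested factors that senescent cells are known to secrete, 17 rose and 12 fell (median 0.10), and quantile normalization gave 14 higher and 14 lower. The percentages were 38.64% and 27.27%, against the 29.1% and 16.0% of all genes. CXCL10, a chemokine induced by interferon, stood at 22.4 and 26.4 FPKM in H1047R and 7.3 and 9.21 in wild type (relative log2 change 1.36, SE 0.15, adjusted p 0.0012). The macrophage growth factor CSF1 stood at 15.1 and 16.3 FPKM in H1047R and 5.26 and 6.18 in wild type (relative log2 change 1.22, SE 0.13, adjusted p 0.00113), and the matrix protease MMP7 at 18.8 and 25.2 FPKM in H1047R and 6.8 and 5.82 in wild type (relative log2 change 1.54, SE 0.17, adjusted p 0.00119). AREG, a ligand of the EGF receptor, stood at 121 and 147 FPKM in H1047R and 318 and 314 in wild type (relative log2 change -1.34, SE 0.13, adjusted p 0.0013), and GDF15 is described above. IL6, a classical member, was below 1 FPKM in all 4 libraries, at 0.28 and 0.4 in H1047R and 0.03 and 0.08 in wild type. The list held 10 higher and 6 lower without wild-type replicate 1, and 11 and 6 without replicate 2, and the conditioned-medium count was 13 of 29.

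NOS2, which makes nitric oxide in epithelia under inflammatory stimuli, stood at 15.1 and 16.7 FPKM in H1047R and 1.34 and 1.55 in wild type (relative log2 change 2.69, SE 0.13, adjusted p 0.000189). In the list of complement and mucosal defense genes 5 rose and 6 fell of 19 (median -0.13), and on the TPM scale 5 higher and 4 lower. CFB, complement factor B, stood at 30.1 and 33.3 FPKM in H1047R and 7.98 and 7.49 in wild type (relative log2 change 1.80, SE 0.11, adjusted p 0.000405). PIGR, the transporter of mucosal antibodies, stood at 7.17 and 7.8 FPKM in H1047R and 1.32 and 1.52 in wild type (relative log2 change 1.71, SE 0.13, adjusted p 0.000633), and the protease inhibitor PI3, unrelated to PI3K, at 589 and 765 FPKM in H1047R and 255 and 261 in wild type (relative log2 change 1.28, SE 0.16, adjusted p 0.00161). The groups did not overlap in any of these. DUOX2, DUOXA2, C1S, SERPING1, CD46 and CD59 fell. The list held 5 higher and 1 lower without wild-type replicate 1, and 4 and 2 without replicate 2, and the conditioned-medium count was 3 of 11.

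Of 49 tested genes of the type I interferon response, 26 rose and 6 fell (median 0.42), that is, 53.06% and 12.24%, against the 29.1% and 16.0% of all genes. IFIT2, a translation inhibitor, stood at 70.7 and 64.2 FPKM in H1047R and 11.2 and 10.5 in wild type (relative log2 change 2.43, SE 0.11, adjusted p 0.000166), and IFIT1, which binds viral RNA, at 47.8 and 61.99 FPKM in H1047R and 15.3 and 13.97 in wild type (relative log2 change 1.73, SE 0.15, adjusted p 0.000711). Its neighbour IFIT3 stood at 94.1 and 59.9 FPKM in H1047R and 21.9 and 19.9 in wild type (relative log2 change 1.70, SE 0.21, adjusted p 0.00161). In these 3 both H1047R libraries were the higher ones. The GTPase MX1 stood at 73.1 and 83.2 FPKM in H1047R and 25.6 and 27.1 in wild type (relative log2 change 1.43, SE 0.11, adjusted p 0.00062), and SAMD9, an antiviral restriction factor, at 17.4 and 15.97 FPKM in H1047R and 4.21 and 3.35 in wild type (relative log2 change 1.79, SE 0.14, adjusted p 0.000633). The groups did not overlap in MX1 or SAMD9 either. IFI44L fell, at 2.4 and 1.95 FPKM in H1047R and 21.0 and 20.8 in wild type (relative log2 change -2.89, SE 0.13, adjusted p 0.000189), although its promoter, like those of IFIT1 and IFIT3, holds the letters of the response element. IFI6, IFI27, IFITM1, HERC5 and PLSCR1 also fell. ISG15, a ubiquitin-like protein, stood at 619.7 and 864 FPKM in H1047R and 577 and 599.6 in wild type and was not called (adjusted p 0.213). It was called in 2 of 13 alternative settings, among them without H1047R replicate 1 (log2 change 0.55). The conditioned-medium count was 7 of 32, against 39 of 40 in the replication list.

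The interferon genes themselves were low. IFNB1, the beta interferon, stood at 2.91 and 3.15 FPKM in H1047R and 0.3 and 0.29 in wild type (relative log2 change 1.54, SE 0.13, adjusted p 0.000717), and IFNL1, a type III interferon, at 3.24 and 4.55 FPKM in H1047R and 1.54 and 1.67 in wild type (relative log2 change 0.80, SE 0.17, adjusted p 0.00732). Of 30 tested genes for JAK kinases, STAT and IRF factors and cytokine receptors, 14 rose and 3 fell (median 0.20). That is 46.67% and 10.0%, against the 29.1% and 16.0% of all genes. IRF1, a factor induced by interferon gamma, stood at 52.98 and 62.6 FPKM in H1047R and 20.3 and 21.4 in wild type (relative log2 change 1.32, SE 0.12, adjusted p 0.000753), and IFNGR1, a chain of the interferon gamma receptor, at 122 and 122 FPKM in H1047R and 50.1 and 47.5 in wild type (relative log2 change 1.20, SE 0.10, adjusted p 0.000646). STAT6, which acts after interleukin 4, stood at 65.7 and 70.3 FPKM in H1047R and 23.4 and 23.3 in wild type (adjusted p 0.000508). In the 5 named genes of this group the libraries did not overlap between the lines. The list held 11 higher and 0 lower calls without wild-type replicate 2, and the conditioned-medium count was 7 of 17.

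HLA class II genes, which present antigen to helper T cells and are usually kept to immune cells, were expressed in both lines and were higher in H1047R. Of 18 tested class II genes and regulators, 14 rose (77.78%) and 0 fell (median 0.61), against 29.1% and 16.0% of all genes. CD74, the invariant chain, stood at 297 and 354 FPKM in H1047R and 135 and 139.8 in wild type (relative log2 change 1.14, SE 0.13, adjusted p 0.00124), and HLA-DRA at 110.0 and 138 FPKM in H1047R and 63.1 and 64.4 in wild type (relative log2 change 0.84, SE 0.13, adjusted p 0.00286). HLA-DQA1 stood at 18.1 and 16.5 FPKM in H1047R and 6.94 and 7.19 in wild type (relative log2 change 1.08, SE 0.12, adjusted p 0.00113), and CIITA, the master activator of the class, at 4.82 and 5.03 FPKM in H1047R and 1.54 and 1.55 in wild type (relative log2 change 1.12, SE 0.13, adjusted p 0.00127). Each H1047R library was above each wild-type library in these 4 genes. Its conditioned-medium count was 3 of 14. CD74 was 17.4 ± 4.38 FPKM in H1047R DMSO and 27.8 ± 0.792 in wild-type DMSO; in conditioned medium it was 46.2 ± 3.13 and 19.9 ± 0.997. Both lines had their highest CD74 values of the 3 treatments in palbociclib. HLA genes are polymorphic and similar to one another, and reads could be split among them.

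HLA class I genes and their peptide supply were higher or not called. Of 22 tested, 14 rose (63.64%) and 0 fell (median 0.34), against 29.1% and 16.0% of all genes. Median-centring gave 8 higher and 0 lower. TAPBPL, a peptide editor, stood at 23.6 and 27.6 FPKM in H1047R and 4.88 and 4.74 in wild type (relative log2 change 2.09, SE 0.13, adjusted p 0.000346), and the immunoproteasome subunits PSMB10 and PSMB9 at 27.5 and 39.97 against 10.9 and 11.6 FPKM and at 59.4 and 70.8 against 27.5 and 31.5 FPKM, H1047R first (relative log2 changes 1.38 and 1.01). HLA-B (581 and 735 against 531 and 556 FPKM), HLA-C (396 and 476 against 385 and 399 FPKM) and B2M (156 and 181 against 164 and 159 FPKM) were not called. They were called without H1047R replicate 1 (log2 changes 0.44, 0.28 and 0.16), and HLA-B and HLA-C each in 1 other of the 13 settings. The list held 5 higher and 0 lower without wild-type replicate 1, and 7 and 0 without replicate 2, and the conditioned-medium count was 0 of 14. In the list of CEACAM genes and immune checkpoint ligands 5 rose and 8 fell of 19 (median -0.24), among the latter the stress ligands of natural killer cells MICA, at 20.5 and 23.8 FPKM in H1047R and 48.1 and 51.4 in wild type (relative log2 change -1.24, SE 0.11, adjusted p 0.00118), and MICB, at 21.6 and 23.4 FPKM in H1047R and 40.95 and 41.1 in wild type (relative log2 change -0.94, SE 0.10, adjusted p 0.00175). CD47, a signal against uptake by macrophages, rose, at 44.5 and 38.4 FPKM in H1047R and 23.97 and 22.4 in wild type (relative log2 change 0.71, SE 0.12, adjusted p 0.00295). That list held 1 higher and 5 lower without wild-type replicate 1 and the same numbers without replicate 2, and 9 higher and 8 lower without H1047R replicate 2, and the conditioned-medium count was 10 of 13.

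**Figure D4:**
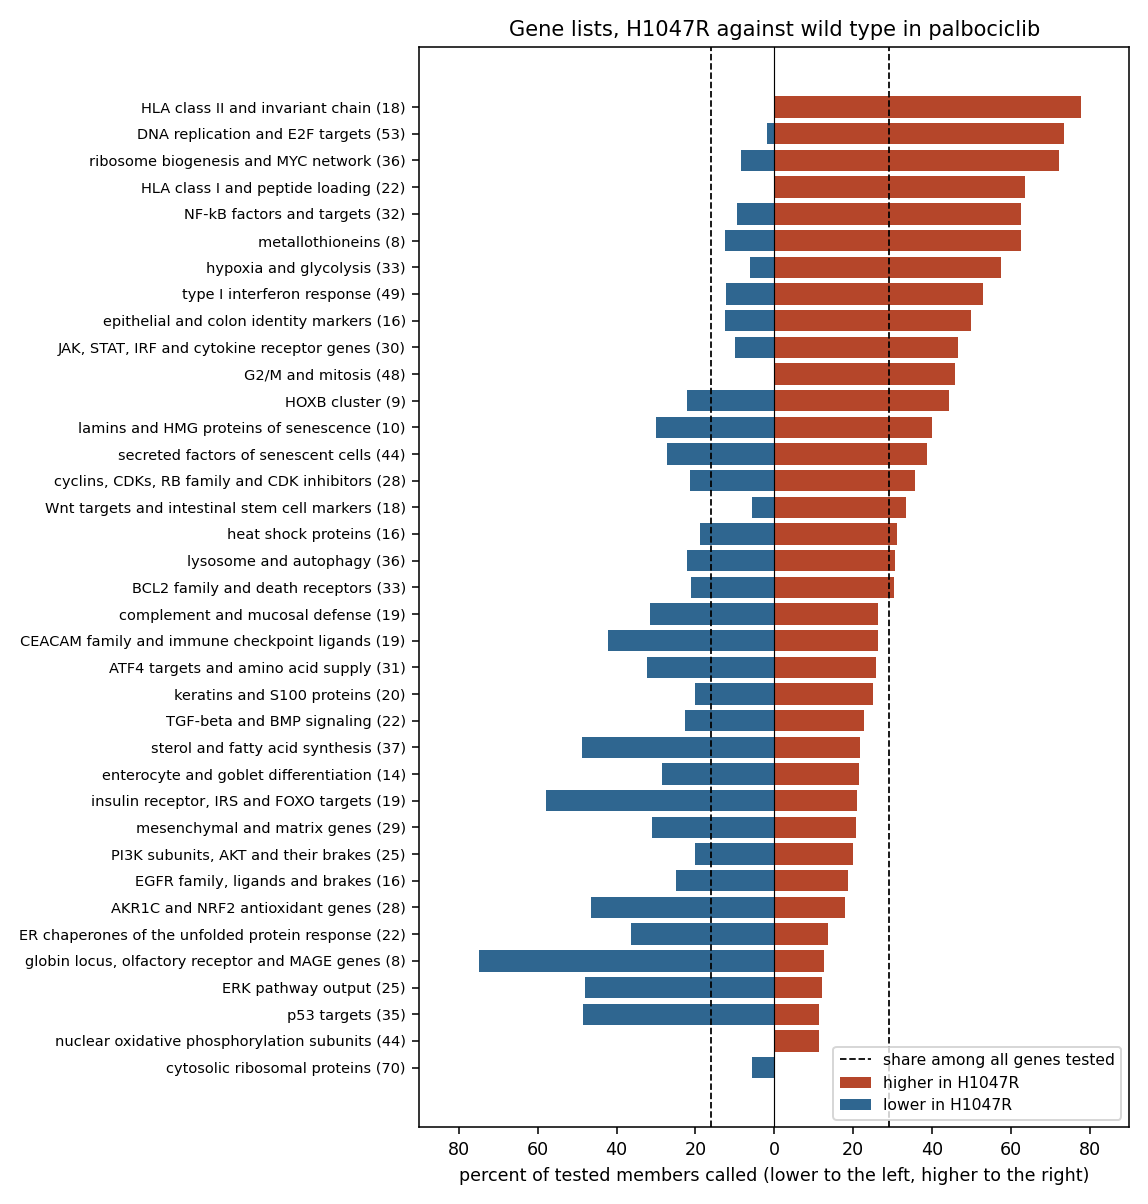
Percent of the tested members of each gene list (number tested in brackets) called higher (red, to the right) and lower (blue, to the left) in H1047R, with the shares among all genes tested, 29.1% and 16.0%, as dashed lines. HLA class II, replication, and ribosome biogenesis lists lie farthest to the right, and cytosolic ribosomal proteins had 0 higher of 70; lists with fewer than 8 tested members are left out.

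More output genes of the ERK pathway fell than rose. Of 25 tested, 3 rose and 12 fell (median -0.34), that is, 12.0% and 48.0%, against the 29.1% and 16.0% of all genes. DUSP5, a nuclear ERK phosphatase, stood at 46.6 and 47.7 FPKM in H1047R and 262 and 263 in wild type (relative log2 change -2.55, SE 0.10, adjusted p 0.000165). DUSP6, another ERK phosphatase, stood at 6.43 and 7.04 FPKM in H1047R and 5.05 and 5.41 in wild type and was not called (adjusted p 0.0867). It was called in 4 of 13 alternative settings, among them without H1047R replicate 1 (log2 change 0.37) or 2 (0.25). MYC and EGR1 went up: MYC stood at 76.3 and 89.6 FPKM in H1047R and 26.8 and 26.8 in wild type (relative log2 change 1.49, SE 0.11, adjusted p 0.00062) and EGR1 at 8.77 and 7.47 FPKM in H1047R and 3.93 and 3.34 in wild type (relative log2 change 0.88, SE 0.14, adjusted p 0.00322). EGFR, the target of erlotinib, stood at 65.9 and 38.9 FPKM in H1047R and 40.3 and 41.6 in wild type, so its H1047R libraries lay on either side of wild type, and was not called (adjusted p 0.322). It was called in 3 of 13 alternative settings, among them without H1047R replicate 2 (log2 change 0.67). Among 16 genes of the EGFR family, 3 rose and 4 fell (median -0.05): besides AREG, HBEGF stood at 5.45 and 4.78 FPKM in H1047R and 10.2 and 10.3 in wild type (relative log2 change -0.98, SE 0.12, adjusted p 0.00288), and BTC, also a ligand, rose, at 10.4 and 9.19 FPKM in H1047R and 4.15 and 3.57 in wild type (relative log2 change 1.05, SE 0.14, adjusted p 0.00171). The ERK list held 3 higher and 6 lower without wild-type replicate 1, and 3 and 5 without replicate 2, and the EGFR list 6 higher and 5 lower without H1047R replicate 2. The conditioned-medium counts were 10 of 15 for the ERK and 4 of 7 for the EGFR list.

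Ribosome biogenesis genes rose while ribosomal proteins did not. Of 36 genes of ribosome biogenesis and the MYC network, 26 rose and 3 fell (median 0.54). That is 72.22% and 8.333%, against the 29.1% and 16.0% of all genes. POLR1A, the large subunit of RNA polymerase I, stood at 10.7 and 9.45 FPKM in H1047R and 2.76 and 2.77 in wild type (relative log2 change 1.45, SE 0.13, adjusted p 0.000753). NOP56 and NOP58, core proteins of nucleolar RNA particles, stood at 94.5 and 91.6 against 32.5 and 34.5 FPKM and at 49.4 and 42.04 against 16.9 and 16.5 FPKM, H1047R first (relative log2 changes 1.35 and 1.295). TAF1D, a cofactor of the same polymerase that also hosts small nucleolar RNAs, fell, at 47.1 and 34.8 FPKM in H1047R and 149 and 136 in wild type (relative log2 change -1.89, SE 0.16, adjusted p 0.000857). Of 70 cytosolic ribosomal protein genes, 0 rose and 4 fell (median -0.32, conditioned-medium count 3 of 4); quantile normalization gave 7 higher and 25 lower, the TPM scale 0 higher and 17 lower and, without H1047R replicate 1 or 2, 3 higher and 13 lower or 0 higher and 66 lower. Without either wild-type library 0 of them were called. These genes held 20.55% and 23.29% of the FPKM sum in the H1047R libraries and 25.36% and 26.18% in wild type. The biogenesis list held 17 higher and 1 lower without wild-type replicate 1, and the conditioned-medium count was 27 of 29.

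More glycolysis and hypoxia genes rose than fell. Of 33 tested, 19 rose and 2 fell (median 0.42), that is, 57.58% and 6.061%, against the 29.1% and 16.0% of all genes. LDHA, which makes lactate, stood at 708 and 739 FPKM in H1047R and 289 and 293 in wild type (relative log2 change 1.21, SE 0.12, adjusted p 0.00101). ANKRD37, a target of hypoxia-inducible factor, stood at 13.8 and 14.5 FPKM in H1047R and 2.68 and 3.2 in wild type (relative log2 change 1.85, SE 0.13, adjusted p 0.000521), and the oxygen sensor EGLN3 at 5.96 and 6.73 FPKM in H1047R and 2.16 and 2.78 in wild type (relative log2 change 0.99, SE 0.15, adjusted p 0.00269). In these genes the groups did not overlap. VEGFA, the vascular growth factor of the same pathway, was lower, at 31.8 and 29.7 FPKM in H1047R and 46.3 and 48.1 in wild type (relative log2 change -0.70, SE 0.10, adjusted p 0.00476), a call lost without wild-type replicate 1 (adjusted p 0.0635) or 2 (0.0915). The list held 9 higher and 1 lower without wild-type replicate 1, and 10 and 1 without replicate 2, and the conditioned-medium count was 12 of 21. Of 44 nuclear subunits of oxidative phosphorylation, 5 rose and 0 fell (median 0.04), and median-centring gave 0 higher and 0 lower, quantile normalization 10 higher and 3 lower, and leaving out either wild-type library 0 higher and 0 lower. Without H1047R replicate 1 or 2 it was 31 higher and 2 lower or 12 higher and 10 lower, and the conditioned-medium count was 5 of 5.

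Of 37 genes of sterol and fatty acid synthesis, 8 rose and 18 fell (median -0.38). That is 21.62% and 48.65%, against the 29.1% and 16.0% of all genes. INSIG1, which retains the sterol sensor in the endoplasmic reticulum (ER), stood at 86.1 and 83.6 FPKM in H1047R and 429 and 434 in wild type (relative log2 change -2.43, SE 0.10, adjusted p 0.000189). HMGCS1, an early enzyme of the pathway, stood at 69.4 and 51.9 FPKM in H1047R and 220.5 and 209.8 in wild type (relative log2 change -1.92, SE 0.15, adjusted p 0.000753), MSMO1, a later one, at 52.5 and 44.99 FPKM in H1047R and 214 and 212 in wild type (relative log2 change -2.21, SE 0.11, adjusted p 0.000288), and the epoxidase SQLE at 46.4 and 47.4 FPKM in H1047R and 88.3 and 87.2 in wild type (relative log2 change -0.99, SE 0.10, adjusted p 0.00132). None of these had overlapping groups. PMVK, LSS, TM7SF2, NSDHL, FADS2 and ACAT2 were among the higher members. Without wild-type replicate 1 the list held 3 higher and 12 lower, and the conditioned-medium count was 18 of 26. INSIG1 was 879.7 ± 13.8 FPKM in wild-type DMSO and 114 ± 11.6 in wild-type conditioned medium.

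Stress programs differed by gene. HSPA5, the main ER chaperone, stood at 208 and 204 FPKM in H1047R and 618 and 636 in wild type (relative log2 change -1.70, SE 0.12, adjusted p 0.000624), and of 22 ER chaperone genes 3 rose and 8 fell (median -0.22); CRELD2 was a higher one, at 26.4 and 35.6 FPKM in H1047R and 11.7 and 13.8 in wild type (relative log2 change 1.105, SE 0.17, adjusted p 0.00267). Of 31 ATF4 targets and amino acid genes, 8 rose and 10 fell (median -0.13): CTH, which makes cysteine, stood at 10.2 and 8.91 FPKM in H1047R and 30.7 and 29.5 in wild type (relative log2 change -1.66, SE 0.12, adjusted p 0.000633), and the glutathione-degrading CHAC1 at 31.3 and 38.9 FPKM in H1047R and 20.8 and 18.6 in wild type (relative log2 change 0.70, SE 0.14, adjusted p 0.00538). Of 16 heat shock genes, 5 rose and 3 fell (median -0.07), turned to 1 higher and 5 lower by median-centring. Their shares of 31.25% higher and 18.75% lower were close to those of all genes. HSPA1B, one of them, stood at 83.9 and 101 FPKM in H1047R and 273 and 273 in wild type (relative log2 change -1.66, SE 0.12, adjusted p 0.000711). It is a near copy of HSPA1A, which stood at 0.67 FPKM or less, so reads could be split between them. Of 28 AKR1C and NRF2 antioxidant genes, 5 rose and 13 fell (median -0.39), with AKR1C3, a steroid and aldehyde reductase, at 6.95 and 5.06 FPKM in H1047R and 19.4 and 20.4 in wild type (relative log2 change -1.69, SE 0.16, adjusted p 0.00114) and AKR1B1 at 0.3 and 0.33 FPKM in H1047R and 3.96 and 4.0 in wild type (relative log2 change -2.02, SE 0.13, adjusted p 0.000521). AKR1C genes are similar to one another and reads could be split. Of 8 genes of metallothioneins and zinc control, 5 rose and 1 fell (median 0.50); MT1E, which binds zinc and copper, stood at 84.0 and 113 FPKM in H1047R and 31.3 and 30.8 in wild type (relative log2 change 1.52, SE 0.15, adjusted p 0.00102), beside the zinc exporter SLC30A1, which fell (relative log2 change -1.07, SE 0.11, adjusted p 0.00137).

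Among these lists, the ER chaperones held 1 higher and 4 lower without wild-type replicate 1, and 1 and 5 without replicate 2. The ATF4 targets held 3 higher and 5 lower without wild-type replicate 1, and 2 and 5 without replicate 2, the heat shock genes 1 higher and 2 lower without wild-type replicate 1, and 1 and 1 without replicate 2, and the antioxidant genes 1 higher and 8 lower without wild-type replicate 1, and 2 and 8 without replicate 2. Without H1047R replicate 1 the ER chaperones held 7 higher and 11 lower, the ATF4 targets 15 higher and 14 lower and the heat shock genes 7 higher and 6 lower. The conditioned-medium counts were 7 of 11 for ER chaperones, 10 of 18 for ATF4 targets, 6 of 8 for heat shock, 12 of 18 for antioxidant and 4 of 6 for metallothionein genes. Of 36 lysosome and autophagy genes, 11 rose and 8 fell (median 0.03), and median-centring gave 6 higher and 9 lower; MANBA, a mannosidase, stood at 5.78 and 3.7 FPKM in H1047R and 13.1 and 13.3 in wild type (relative log2 change -1.43, SE 0.19, adjusted p 0.00285). Of 33 BCL2 family and death receptor genes, 10 rose and 7 fell (median 0.10), and median-centring gave 7 higher and 10 lower; CASP8, the initiator caspase of death receptors, stood at 33.9 and 28.4 FPKM in H1047R and 9.84 and 11.02 in wild type (relative log2 change 1.39, SE 0.13, adjusted p 0.000855). The shares higher and lower were 30.56% and 22.22% in the lysosome and 30.3% and 21.21% in the BCL2 list, close to the 29.1% and 16.0% of all genes. The conditioned-medium counts were 13 of 19 for the lysosome and 12 of 17 for the BCL2 list. The lysosome list held 5 higher and 2 lower without wild-type replicate 1, and 6 and 2 without replicate 2, and the BCL2 list 3 higher and 4 lower without wild-type replicate 1, and 5 and 3 without replicate 2. Without H1047R replicate 1 the lysosome list held 19 higher and 11 lower, and without H1047R replicate 2 the BCL2 list held 15 higher and 12 lower.

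Epithelial and colon markers were present in both lines. Of 16 tested epithelial and colon markers, 8 rose and 2 fell (median 0.25). For these markers quantile normalization gave 8 higher and 4 lower and median-centring 5 higher and 4 lower. The intestinal factor CDX2 stood at 59.1 and 64.3 FPKM in H1047R and 28.8 and 29.5 in wild type (relative log2 change 0.95, SE 0.10, adjusted p 0.00106), the colon antigen GPA33 at 22.8 and 24.2 FPKM in H1047R and 12.2 and 12.4 in wild type (relative log2 change 0.78, SE 0.10, adjusted p 0.00173), and the intestinal cadherin CDH17 went down, at 1.95 and 1.76 FPKM in H1047R and 9.07 and 8.36 in wild type (relative log2 change -1.87, SE 0.13, adjusted p 0.000633). LGR5, a stem cell marker and Wnt target, stood at 51.7 and 30.9 FPKM in H1047R and 8.15 and 7.85 in wild type (relative log2 change 2.09, SE 0.23, adjusted p 0.00125), and the Wnt inhibitor DKK1 at 83.2 and 93.8 FPKM in H1047R and 33.5 and 33.7 in wild type (relative log2 change 1.27, SE 0.11, adjusted p 0.000682). Both genes were above wild type in both H1047R libraries. Of the 18 Wnt and stem cell genes, 6 rose and 1 fell (median -0.10), and median-centring gave 4 higher and 4 lower. MUC1, a membrane mucin, stood at 25.1 and 27.5 FPKM in H1047R and 4.16 and 4.64 in wild type (relative log2 change 2.24, SE 0.12, adjusted p 0.000251), in a list of 14 enterocyte and goblet genes in which 3 rose and 4 fell (median -0.29). The epithelial list held 3 higher and 2 lower without wild-type replicate 1, and 3 and 1 without replicate 2, the Wnt list 3 higher and 1 lower without wild-type replicate 1 and the same numbers without replicate 2, and the differentiation list 1 higher and 2 lower without wild-type replicate 1 and the same numbers without replicate 2. Without H1047R replicate 1 the Wnt list held 6 higher and 6 lower and the differentiation list 4 higher and 8 lower, and without H1047R replicate 2 the Wnt list held 9 higher and 3 lower. The conditioned-medium counts were 3 of 10, 7 of 7 and 2 of 7 in the same order.

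Of 29 mesenchymal and matrix genes, 6 rose and 9 fell (median -0.31). Vimentin, VIM, stood at 32.04 and 36.2 FPKM in H1047R and 73.3 and 76.98 in wild type (relative log2 change -1.22, SE 0.11, adjusted p 0.00108), and the factor SNAI1 at 3.62 and 5.0 FPKM in H1047R and 10.03 and 9.08 in wild type (relative log2 change -1.10, SE 0.16, adjusted p 0.00452), while the matrix glycoprotein THBS1 rose, at 17.5 and 13.1 FPKM in H1047R and 7.64 and 7.23 in wild type (relative log2 change 0.84, SE 0.16, adjusted p 0.00506). Of 22 TGF-beta and BMP genes, 5 rose and 5 fell (median -0.41), and median-centring gave 2 higher and 11 lower; SMAD7, a feedback inhibitor, stood at 16.7 and 17.7 FPKM in H1047R and 31.1 and 29.7 in wild type (relative log2 change -0.89, SE 0.10, adjusted p 0.00222). Of 20 keratin and S100 genes, 5 rose and 4 fell (median -0.16), and median-centring gave 1 higher and 5 lower; S100P, a calcium-binding protein, had 22.3 and 27.5 FPKM in H1047R and 210.0 and 225 in wild type (relative log2 change -3.18, SE 0.13, adjusted p 0.000165). In each of these genes the groups did not overlap. The mesenchymal list held 2 higher and 3 lower without wild-type replicate 1, and 1 and 4 without replicate 2, the TGF-beta list 1 higher and 2 lower without wild-type replicate 1, and 2 and 2 without replicate 2, and the keratin list 0 higher and 3 lower without wild-type replicate 1, and 0 and 2 without replicate 2. The conditioned-medium counts were 9 of 15, 6 of 10 and 4 of 9 in the same order.

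HOX genes, which keep positional identity, split within a cluster. Of 9 HOXB genes, 4 rose and 2 fell (median -0.16), and median-centring gave 3 higher and 3 lower. Without H1047R replicate 1 the list held 4 higher and 4 lower, and the conditioned-medium count was 4 of 6. HOXB13 stood at 15.4 and 19.3 FPKM in H1047R and 4.79 and 4.88 in wild type (relative log2 change 1.55, SE 0.14, adjusted p 0.000792) and HOXB4 at 15.7 and 9.93 FPKM in H1047R and 45.4 and 44.5 in wild type (relative log2 change -1.87, SE 0.20, adjusted p 0.00146). On chromosome 7, HOXA9, chosen after its values were seen, stood at 39.01 and 37.4 FPKM in H1047R and 184 and 180.1 in wild type (relative log2 change -2.32, SE 0.10, adjusted p 0.000189). Wild type in conditioned medium was at 52.9 ± 2.07 FPKM for HOXA9. Antisense transcripts overlap the HOX clusters, and whether counting used strand is not given in the sources used here.

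Clock genes were looked at because DBP was among the largest decreases. DBP, an output factor of the circadian clock, stood at 2.55 and 3.44 FPKM in H1047R and 21.4 and 20.3 in wild type (relative log2 change -2.56, SE 0.15, adjusted p 0.000405). The repressors NR1D1 and PER1 stood at 4.93 and 5.03 against 25.3 and 25.9 FPKM and at 4.92 and 5.39 against 30.5 and 32.5 FPKM, H1047R first (relative log2 changes -2.25 and -2.50, adjusted p 0.000234 and 0.000189), and BHLHE40 at 48.3 and 42.2 against 93.8 and 96.8 FPKM (-1.16, 0.00124). In these 4 both H1047R libraries were lower. PER2 (1.48 and 1.18 against 1.35 and 1.32 FPKM) and PER3 (3.34 and 2.21 against 3.59 and 3.03 FPKM) were not called. PER3 was called in 1 of 13 alternative settings, without H1047R replicate 1 (log2 change -0.42). Wild-type conditioned medium held PER1 at 6.04 ± 0.636 FPKM and NR1D1 at 4.21 ± 0.686, against 34.03 ± 0.064 and 31.7 ± 1.07 in wild-type DMSO.

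Genes with a single exon were looked at after the values were seen, with no test of the difference from other genes. Of 214 tested genes whose annotated transcripts have 1 exon, 47.2% were higher and 17.29% lower, against 29.1% and 16.0% of all genes, with a median log2 change of 0.36 against 0.098 in 11830 genes with several exons. HPS6 stood at 14.02 and 20.4 FPKM in H1047R and 1.53 and 1.9 in wild type (relative log2 change 2.63, SE 0.19, adjusted p 0.000613), the arginine methyltransferase PRMT6 at 7.33 and 8.57 FPKM in H1047R and 0.27 and 0.63 in wild type (relative log2 change 2.53, SE 0.17, adjusted p 0.000508), and the selenium enzyme SEPHS2 at 49.6 and 52.6 FPKM in H1047R and 9.36 and 10.1 in wild type (relative log2 change 2.18, SE 0.10, adjusted p 0.000189). GEMIN4 and INTS5, parts of RNA processing complexes, have 3 and 2 annotated exons and are not among the 214. They stood at 21.6 and 23.4 against 4.95 and 4.89 FPKM and at 12.1 and 13.7 against 2.3 and 2.53 FPKM, H1047R first. Both H1047R libraries were above wild type in each. Between H1047R and wild type in DMSO the medians were 0.42 in single-exon genes and 0.26 in the others. In conditioned medium they were -0.04 and 0.00. HPS6 was 11.4 ± 0.311 FPKM in wild-type conditioned medium and 0.645 ± 0.163 in wild-type DMSO. PPP1R10, at 33.5 and 35.5 FPKM in H1047R and 3.27 and 3.76 in wild type (relative log2 change 2.88, SE 0.12, adjusted p 0.000165), and NCOA5, at 12.02 and 12.7 FPKM in H1047R and 0.78 and 1.0 in wild type (relative log2 change 2.72, SE 0.13, adjusted p 0.000189), have several exons and the same pattern, with 32.5 ± 0.566 and 8.55 ± 0.976 FPKM in wild-type conditioned medium. So had the RNA-binding protein SFPQ, at 122 and 121 FPKM in H1047R and 30.3 and 29.9 in wild type (relative log2 change 1.88, SE 0.09, adjusted p 0.000189). Its level in wild-type conditioned medium was 158 ± 5.95 FPKM.

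**Figure D5:**
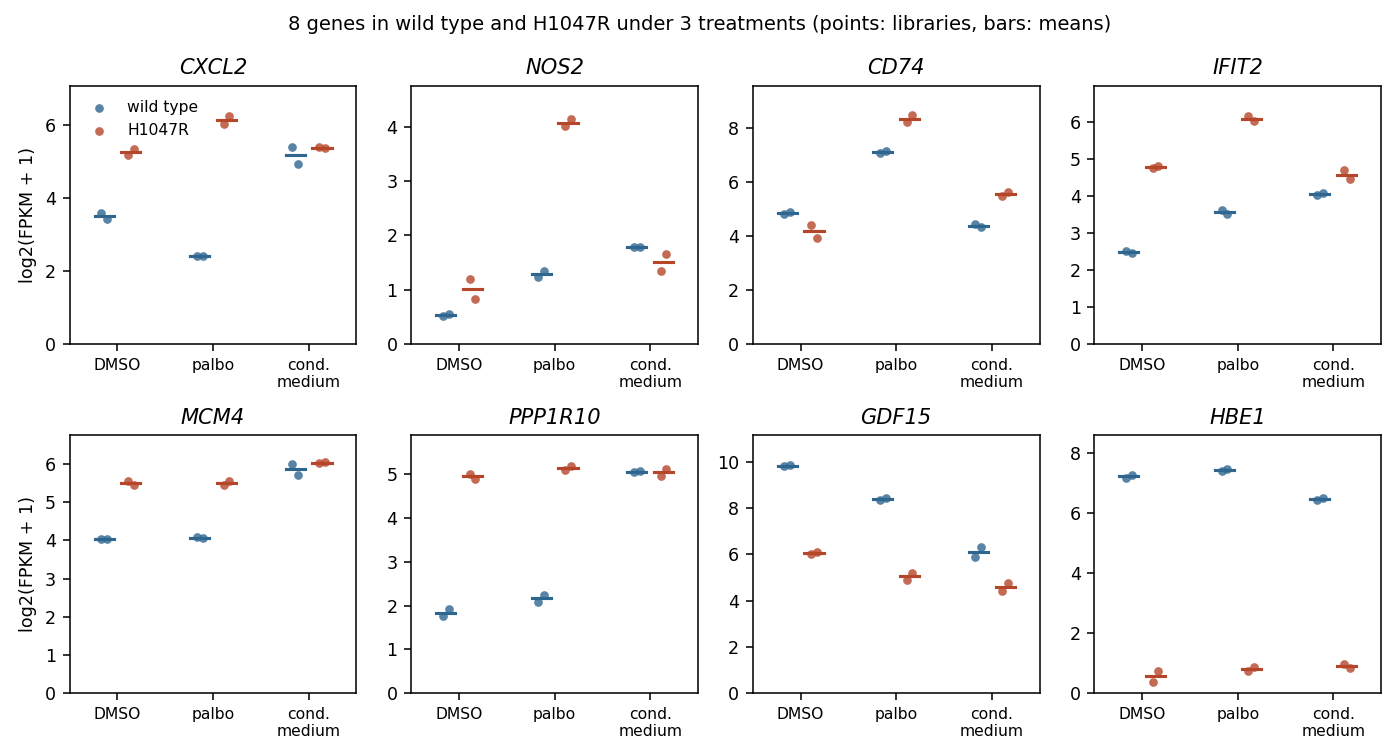
Log2(FPKM + 1) of 8 genes in wild type (blue) and H1047R (red) in DMSO, palbociclib and conditioned medium, with 2 libraries per group as points and their mean as a bar. MCM4 and PPP1R10 in wild type reached the H1047R level in conditioned medium, CD74 and IFIT2 did not, and HBE1 was near 0 in H1047R under all 3 treatments.

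Whether the line difference in palbociclib differed from that in DMSO was tested as a difference of differences. It was called in 323 of 12355 genes (2.61%), 128 higher (1.04%) and 195 lower (1.58%), and the median over all genes was -0.17. The count fell to 4 without either DMSO wild-type library, to 4 and 6 without wild-type palbociclib replicate 1 and 2, and to 125 and 43 without H1047R DMSO replicate 1 and 2. It rose to 4163 and 687 without H1047R palbociclib replicate 1 and 2. Relative to the median, the difference for NOS2 was larger in palbociclib by 2.48 (SE 0.20, adjusted p 0.00504), with 1.03 ± 0.368 FPKM in H1047R DMSO and 0.45 ± 0.028 in wild-type DMSO. It was larger by 2.14 for CXCL2 (0.00329), by 1.63 for CCL20 (0.0237) and by 2.07 for CD74 (0.014), all chemokine or class II genes described above. CXCL8, the major neutrophil chemokine, was lower in H1047R than in wild type in DMSO by its means (39.8 ± 13.1 and 105 ± 0.099 FPKM). In palbociclib it stood at 72.2 and 79.9 FPKM in H1047R and 48.8 and 47.8 in wild type, a difference called in the 4 libraries (adjusted p 0.00427) and lost without wild-type replicate 1 (0.0572) or 2 (0.0714). ALPG, with 17.2 and 21.7 FPKM in H1047R and 193 and 201 in wild type in palbociclib (relative log2 change -3.38, SE 0.13, adjusted p 0.000165) and 144 ± 23.7 and 500.0 ± 12.6 in DMSO, moved the other way (-1.32, 0.0158).

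The H1047R line was also set against the E545K line in the same drug; this comparison shares the H1047R libraries with the one above. The libraries of the first table gave 181 genes higher in H1047R (1.5% of 12060) and 175 lower (1.45%), together 2.95%. The sum of both was 148 without E545K replicate 1 and 141 without replicate 2, and 4939 without H1047R replicate 1 and 980 without replicate 2. The second table, with other libraries of both lines and hours of palbociclib that are not stated, gave 2015 higher (16.5% of 12236) and 2997 lower (24.5%), together 41.0%, and 1222 in all without either E545K library. Of 169 higher and 171 lower genes of the first table that were tested in both, 99 (58.58%) and 132 (77.19%) were called in the same direction in the second, where they made up 5.056% and 4.47% of the calls, and 20 and 8 were called in the opposite one.

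Class II genes separated the mutant lines. CD74 was 326 ± 40.2 FPKM in H1047R and 79.03 ± 6.33 in E545K in the first table, and 56.6 ± 4.53 and 8.21 ± 0.099 in the second (adjusted p 1.43e-05 and 5.90e-05). HLA-DRA was 124 ± 19.8 and 43.8 ± 2.47, then 17.8 ± 1.88 and 10.8 ± 0.0071 (0.000168 and 0.00381). Complement factor CFB was 31.7 ± 2.29 and 5.45 ± 0.601, then 17.1 ± 0.446 and 1.46 ± 0.028 (5.76e-06 and 5.03e-05), and MMP7 was 21.99 ± 4.54 and 3.15 ± 0.042, then 11.5 ± 3.25 and 0.39 ± 0.255 (1.03e-05 and 0.000391). These genes were higher in H1047R in both tables. Their levels in H1047R differed between the tables, which were normalized separately.

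Other genes put E545K above H1047R. IFI44L was 22.6 ± 0.7 FPKM in E545K against 2.17 ± 0.318 in H1047R, and 11.7 ± 0.177 against 3.01 ± 0.028 in the second table (adjusted p 2.21e-06 and 0.00019). CRIP1 was 36.5 ± 1.36 against 0.175 ± 0.0071, and 73.5 ± 8.13 against 0.09 ± 0 (2.33e-08 and 1.12e-05). PIK3CA itself had means of 10.16 against 5.165, and 11.88 against 7.305 in the second table (0.0163 and 0.00326). These PIK3CA values, too, do not separate the introduced from the endogenous transcript. SLC39A2, among the 12 largest increases over wild type, had means of 20.08 against 9.735, and 8.125 against 0.885 in the second table (0.00283 and 0.000117). HBE1 was 6.46 ± 0.884 in E545K (4.95e-05), between H1047R and wild type. CXCL2, at 53.9 ± 2.04 in E545K, did not differ by the test in the first table (0.245) and was higher in H1047R in the second (0.0063). PRR15L, APOL1 and MUC1 were higher in H1047R in the first table, with 4.79 ± 0.438, 144 ± 0.495 and 6.06 ± 0.127 FPKM in E545K (5.22e-05, 0.000135 and 1.41e-05), and not in the second, where PRR15L was lower (0.00926) and the others were not called (0.689 and 0.641). The replication gene MCM4 did not differ by the test in the first table (44.05 ± 2.17 and 46.5 ± 1.58, 0.787) and was lower in H1047R in the second (22.4 ± 2.11 and 50.5 ± 0.764, 0.000509), as was MKI67 there (11.03 ± 0.297 and 44.8 ± 0.297, 7.40e-05).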

How the data were processed

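RNA sequencing of LoVo cultures was used as deposited: the authors' tables hold FPKM per gene and library, per the file headers, to 2 decimals and without counts. The submitters' processing notes name HISAT2 2.1.0, Bowtie2 2.3.4.3, RSEM 1.3.1, DESeq2 1.4.5 and GRCh38, without their order. Columns were assigned by their names in the labels. Genes with at least 1 FPKM in at least 2 of the 4 libraries were tested on log2(FPKM + 1), which understates the change of low genes, with limma 3.58.1 (R 4.3.3, eBayes with a mean trend) and Benjamini-Hochberg adjustment at 0.05, on the 4 compared libraries alone. The fit had 2 residual and 4.34 prior degrees of freedom, and 6568 genes had an unadjusted p below 0.05. The difference between treatments, and H1047R against E545K in each table, were fitted the same way on their own libraries. The main fit was also run on simulated libraries with independent noise. These lacked the length difference between replicates, so that run does not give the error rate in these data.

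The comparison, its 38 gene lists and its tests were chosen with earlier results of these data known. Genes were named by 3 rules. PIK3CA, CDK4, CDK6, RB1, CCND1, CDKN1A, MKI67, LMNB1 and EGFR were always named. The 12 largest changes in each direction were taken among called genes without overlap and with a mean of at least 5 FPKM in the higher group. In each list the 4 called members with the largest changes could be named. The following were named outside these rules after their values were seen: APOL2, APOL3, SFPQ, PRMT6, GEMIN4, INTS5, SEPHS2, NR1D1, PER1, PER2, PER3, BHLHE40, HOXA9, HLA-DRA, HLA-DPA1, HLA-DPB1, IFNL1, CXCL8, CXCL10, TOP2A, TAF1D, TNFAIP3, MX1, ISG15, HLA-B, HLA-C, B2M, ERBB3, DUSP6, CDKN2B, CDKN1B, SQLE, MDM2, IL32, CSF1, TNF, MMP7, VEGFA, IFIT3 and CDKN2C. Some members that a rule allowed are not reported here.

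Alternatives were a pseudocount of 0.1, no filter, quantile normalization, median-centring, rescaling to TPM, fits on all 18 or on the 6 palbociclib libraries, a replicate block, leaving out each library, and, added after seeing the data, removal of a length trend with transcript lengths from GENCODE (99.32% of genes matched). Promoters and positions are from RefSeq (GRCh38.p14); matplotlib 3.10.9 and pandas 2.3.3 under Python 3.11.15 were used.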

Additional observations from a re-analysis of the deposited data

Results flagged for a closer look

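The difference between H1047R and wild type in palbociclib differed from that in DMSO, by limma on the 8 libraries, in 37 of the 203 named genes, against 323 of 12355 genes tested (2.61%). Many of the named genes were chosen for large differences in palbociclib or after values were seen, so the shares are not comparable. The values are log2 differences of differences relative to the median of all genes, positive where H1047R stood higher against wild type in palbociclib than in DMSO. The calls rest on few libraries: without any 1 wild-type library 4 to 6 genes were called over all genes tested, so each value asks for further replicates.

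Chemokines and cytokines had 2.22 for CXCL8, 2.14 for CXCL2, 1.70 for CXCL10, 1.63 for CCL20, 1.54 for CXCL3, 1.35 for TNF and 1.32 for IL32. TNFAIP3, the NF-kB inhibitor, had 1.25, the nitric oxide synthase NOS2 2.48, complement factor CFB 1.54 and the protease MMP7 1.23. Class II genes had 2.07 for CD74, 1.86 for HLA-DPA1, 1.80 for HLA-DRA, 1.63 for HLA-DQA1, 1.32 for HLA-DPB1 and 1.06 for their activator CIITA. Genes of interferon signaling and class I had 1.35 for IFNB1, 1.02 for IRF1, 0.99 for B2M, 0.93 for the proteasome activator PSME2, 0.82 for IFNGR1 and 0.80 for MX1, while IFI44L had -0.68.

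Other genes with positive values were CHAC1 at 2.36, RASL11A at 1.11, LRRN4 at 1.06, the heat shock genes DNAJB1 and DNAJA1 at 0.98 and 0.88, and HBEGF at 0.89. Negative values were HOXB4 at -1.71, ALPG at -1.32, GPA33 at -0.95, the receptor gene ERBB3 at -0.92, CDKN1B at -0.60, HOXA9 at -0.49 and TXNIP at -0.42.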

How the results depend on the processing

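With 2 libraries per group, the number of called genes depended on single libraries. Leaving out 1 library at a time, H1047R against wild type had 2548 to 8795 calls (5478 with all 4), the difference between palbociclib and DMSO 4 to 4163 (323), H1047R against E545K 141 to 4939 in the first table (356) and 1222 to 6749 in the second (5012). Where an arm had 1 library left, that library was assumed to vary like the other group. The cause of these differences was not tested. MKI67, not called with all libraries, had a log2 change of -0.55 without H1047R replicate 1 and 0.34 without H1047R replicate 2.

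The fit with a replicate block, in which equal numbers are treated as a pair, gave 6860 calls for H1047R against wild type (4221 higher, 2639 lower), 884 for H1047R against E545K in the first table and 43 for the difference between treatments. The deviations of equally numbered libraries correlated at 0.35 over the 12126 genes in the main comparison, 1 independent value that cannot show a pairing. The fit on all 18 libraries called 4776 higher and 2959 lower genes, and the TPM scale 3051 and 1488. Removing a length trend, an alternative chosen after seeing the data, gave 4070 higher and 2432 lower of 12044 genes. For the 203 genes listed by name, leaving out a library kept direction and call in 737 of 812 values, lost the call in 56, gained it in 18 and reversed 1, which was MKI67. Under the other settings 1784 of 1827 values kept both, 17 lost and 26 gained the call, and 0 reversed. Depth is unknown, so no counting error can be given.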
